A study of Arabidopsis thaliana with 12 samples.

Results

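Dimethylthiourea (DMTU) given alone was compared with the ethanol control in Arabidopsis thaliana T87 cells, an undifferentiated line in the Col-0 background that grows in suspension. The comparison takes 6 of the 12 arrays of the series, 3 titled DMTU and 3 titled control, and was described over 22746 of the 22810 probe sets, the 64 array controls being left out. DMTU was present at 5 mM for 20 h, and ethanol stands in the hormone label of both the DMTU and the control arrays. The remaining groups are ABA+DMTU and ABA (abscisic acid at 50 µM), also of 3 arrays each, and they serve here as a second pair in which DMTU was present or absent and, in the fit over all 12 arrays, in the estimate of the spread: the 6 DMTU and control arrays alone gave 2973 calls in place of 4013. All 4 groups share the cell line, the age of 5 days in culture, the medium with sucrose and a synthetic auxin, and long days. Whether the replicates came from separate cultures is not in the labels, and the p-values therefore cover only the spread among these arrays, which may be technical. No batch is named in the labels, and any batch that the DMTU arrays share cannot be told apart from DMTU. The records of the DMTU and ABA+DMTU arrays form one block in the series and those of the control and ABA arrays another, so a difference between these blocks would enter both pairs alike.

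DMTU is a membrane-permeable thiourea that plant studies use to scavenge hydrogen peroxide and hydroxyl radicals. Hydrogen peroxide is made by chloroplasts, mitochondria and the RBOH NADPH oxidases of the plasma membrane, it is removed by catalases, ascorbate peroxidases and peroxiredoxins, and it acts as a signal in the responses to ABA, low oxygen and excess light. The genes most often followed for such signals are nuclear, but plastids and mitochondria keep their own genomes, and plastid transcripts mostly lack the stable poly(A) tail of nuclear messages.

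Values are on the log2 scale, so that a difference of 1 is a 2-fold change, and each change is DMTU minus control with its standard error (SE). A probe set was called changed at an adjusted p under 0.05, from limma with Benjamini-Hochberg adjustment over all 22746 probe sets. In bulk RNA, fewer cells of a type and less RNA per cell cannot be told apart. Of the probe sets, 13513 are annotated to 1 gene, 1580 of them with a symbol, 503 to several genes, and 8730 have no gene in the annotation used here and are counted but not named.

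The arrays were alike in level, with medians of 6.05, 6.02 and 5.96 in the DMTU arrays and 6.02, 5.96 and 5.98 in the control arrays. The DMTU arrays differed from each other with an SD over probe sets of 0.211 to 0.353. Control replicates 2 and 3 differed by 0.168, and replicate 1 stood apart from both, at 0.565 and 0.55. Control probe sets that read the 2 ends of a message gave a larger 3′ minus 5′ difference with DMTU for ubiquitin, at 1.28, 1.41 and 1.38 in the DMTU arrays and 1.01, 0.88 and 0.88 in the control arrays. The second actin control averaged 1.09 ± 0.05 in the DMTU arrays and 0.76 ± 0.14 in the control arrays, and GAPDH averaged 0.41 ± 0.19 in the DMTU arrays and 0.45 ± 0.10 in the control arrays (SD, n = 3 each). The hybridisation spike-ins averaged 10.11, 9.98 and 10.13 in the DMTU arrays against 9.24, 9.28 and 9.62 in the control arrays. T87 has no defining marker set. Of markers of cell types a culture could hold, the root hair expansins EXPA7 and EXPA18 and the guard cell factor FMA lay between 3.58 and 4.46 in all 6 arrays, near the lower quartile of all values (3.92).

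DMTU changed 4013 probe sets (17.6% of those tested), of which 2135 were higher (9.39%) and 1878 lower (8.26%). At least 2-fold, 521 were higher (2.29%) and 598 lower (2.63%), and past 4-fold the numbers were 43 and 92. The 3 DMTU arrays and the 3 control arrays did not overlap for 519 of the 521 rises and 595 of the 598 falls. Over all probe sets this held for 8799 (38.7%). A call of at least 2-fold favours such a gap by itself. The largest rises and falls named below had to show it to be named. The count of calls was 2559 without DMTU replicate 2 and 3451 without control replicate 1.

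**Figure D1:**
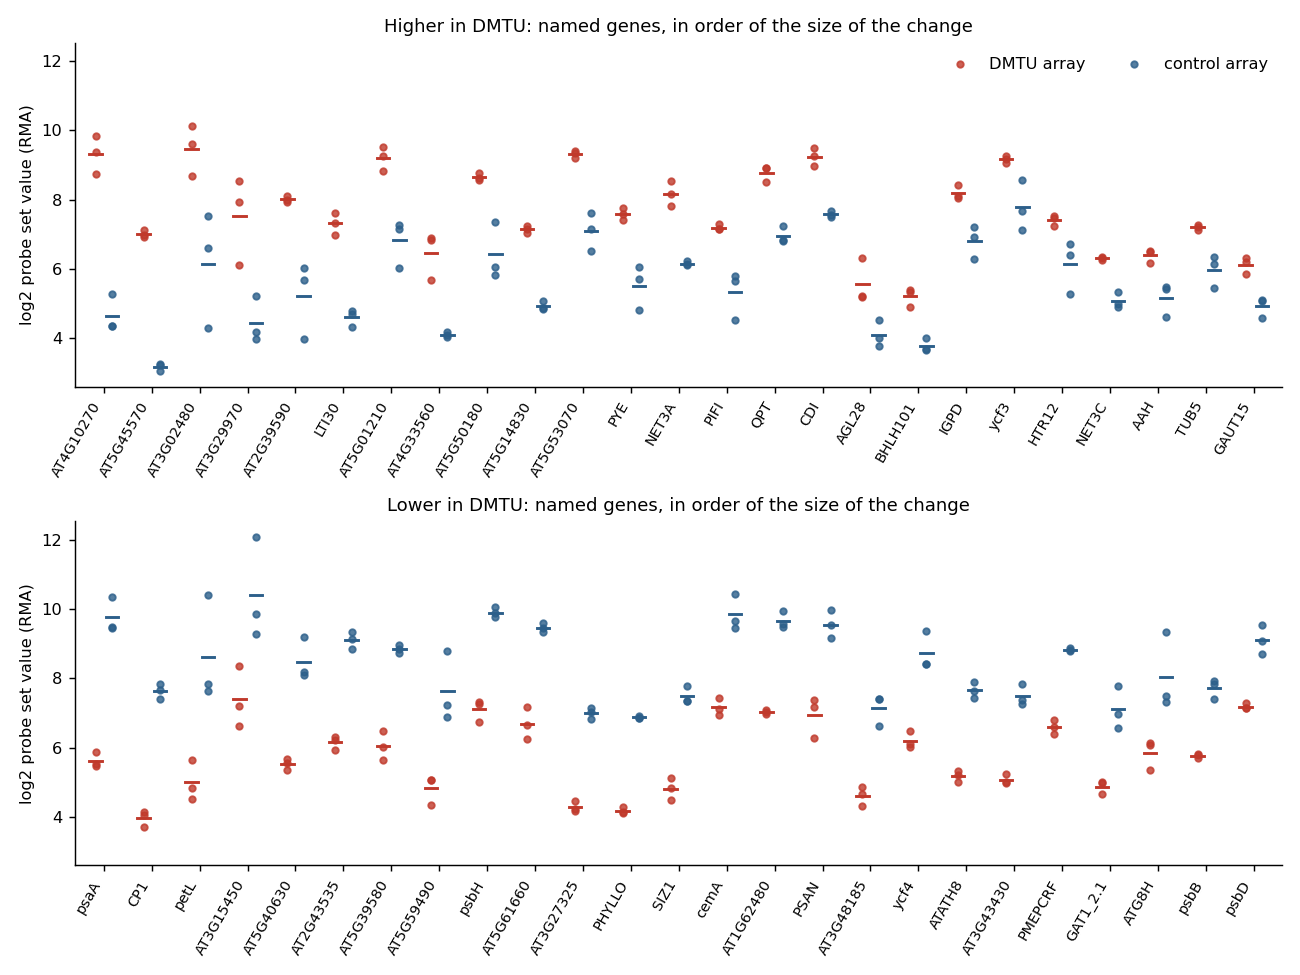
Level in each array (log2 probe set value, vertical axis) of the named genes that were at least 2-fold higher (upper panel) or lower (lower panel) in DMTU, in order of the size of the change; points are single arrays, bars are group means, DMTU to the left of control. For AT4G10270 the DMTU arrays lie between 8.73 and 9.84 and the control arrays between 4.35 and 5.27, and for psaA the DMTU arrays lie between 5.47 and 5.88 and the control arrays between 9.47 and 10.36.

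Among genes with a symbol, the largest rises included a dehydrin, regulators of iron deficiency and an enzyme of NAD synthesis. LTI30, a dehydrin that accumulates in cold, drought and ABA, had 7.33, 7.62 and 7.00 in the DMTU arrays, against 4.33, 4.78 and 4.71 in the control arrays. The 2 groups lay more than 2 units apart at their nearest, and the rise was 2.71 ± 0.50 (6.55-fold, limma adjusted p = 0.0042). Other genes of the list of LEA proteins and ABA markers did not follow it: LTI30 was the 1 called of 6 measured, COR15A changed by 0.06 (adjusted p = 0.911), COR15B by 0.50 (adjusted p = 0.133) and COR47 by -0.76 (adjusted p = 0.285). In a separate list of the LEA family, 1 of 7 measured genes was called higher and 0 lower, beside 9.39% and 8.26% of all probe sets. Its changes ran from -0.11 to 1.18, with a median of 0.09.

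QPT, which makes the nicotinate mononucleotide of the de novo NAD pathway, had 8.90, 8.92 and 8.52 in the DMTU arrays and 7.25, 6.81 and 6.83 in the control arrays. Its rise of 1.82 ± 0.18 (limma adjusted p = 0.000151) stood beside 1.62 in ABA+DMTU against ABA. The other measured genes of NAD synthesis were AT1G55090, at -0.66 (adjusted p = 0.0296, up to 0.11 when single arrays were left out), and NMNAT, at 0.13 (adjusted p = 0.5055). PIFI, a chloroplast protein of the NDH-dependent electron flow, had 7.29, 7.16 and 7.14 in the DMTU arrays and 4.54, 5.80 and 5.67 in the control arrays, a rise of 1.86 ± 0.32 (limma adjusted p = 0.00301). All of its DMTU values were within 0.2 of each other, and its spread came from control replicate 1, without which the rise was 1.46.

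Proteins of the cytoskeleton and cell wall were also among the rises. NET3A and NET3C belong to the plant family of NETWORKED actin-binding proteins. NET3A had 7.83, 8.15 and 8.55 in the DMTU arrays and 6.22, 6.15 and 6.10 in the control arrays (2.02 ± 0.33, limma adjusted p = 0.00235). NET3C had 6.35, 6.33 and 6.25 in the DMTU arrays and 5.34, 4.98 and 4.89 in the control arrays (1.24 ± 0.14, limma adjusted p = 0.000269). Both genes were higher in every DMTU array than in any control array, which the rule for naming the largest changes required. GAUT15, of the galacturonosyltransferase family of pectin synthesis, rose by 1.20, and TUB5, a beta-tubulin, by 1.22. The TUB5 call was lost without control replicate 1 or any single DMTU replicate, with adjusted p up to 0.0794. The remaining rises by symbol were CDI (1.67), the MADS-box factor AGL28 (1.46), IGPD of histidine synthesis (1.39) and AAH of ureide breakdown (1.23), together with PYE, BHLH101, HTR12 and ycf3, which are described with their groups.

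The largest rises of all named genes were of loci without a symbol. AT4G10270 had 9.37, 9.84 and 8.73 in the DMTU arrays, against 5.27, 4.35 and 4.35 in the control arrays, a rise of 4.66 ± 0.55 (25.2-fold, limma adjusted p = 0.000357). AT5G45570 had 7.14, 6.93 and 6.99 in the DMTU arrays, against 3.23, 3.06 and 3.25 in the control arrays, which lie below the lower quartile of all values. It rose by 3.84 ± 0.17 (14.3-fold, limma adjusted p = 9.41e-07), and ABA+DMTU was 3.10 above ABA. AT3G02480 had 9.61, 10.12 and 8.68 in the DMTU arrays and 4.30, 7.52 and 6.61 in the control arrays (3.32 ± 0.67), so its control values spread over 3 units while no control array reached the DMTU arrays. The other 7 rises of this kind were AT3G29970 (3.08), AT2G39590 (2.78), AT5G01210 (2.39), AT4G33560 (2.36), AT5G50180 (2.23), AT5G14830 (2.21) and AT5G53070 (2.21). AT5G01210 no longer passed when DMTU replicate 2 was left out (adjusted p = 0.0528).

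In the list of the core response to low oxygen, 7 of 14 measured genes were called higher, beside 9.39% of all probe sets. This core is a set of loci induced in many cell types when oxygen runs short, and plants then draw energy from fermentation. Of 31 loci listed, 14 were measured, 0 were called lower, and all 14 changes were above 0, with a median of 0.85 beside a median of 0.04 over the 13355 genes measured, 57.2% of which were above 0. AT4G10270 belongs to this list. AT3G27220 had 6.63, 7.07 and 6.95 in the DMTU arrays and 5.15, 5.22 and 5.31 in the control arrays (1.66 ± 0.18, limma adjusted p = 0.000233). AT5G66985 had 5.22, 4.94 and 4.48 in the DMTU arrays and 3.20, 3.55 and 3.52 in the control arrays (1.45 ± 0.19, limma adjusted p = 0.000746). AT3G10040 had 5.53, 5.62 and 5.42 in the DMTU arrays and 4.22, 4.46 and 4.40 in the control arrays (1.17 ± 0.20, limma adjusted p = 0.0026). In these 4 loci the 2 groups did not overlap and the call held with any single array left out.

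The other 3 calls of the list were less stable. AT4G27450 had 10.12, 9.97 and 8.71 in the DMTU arrays and 9.10, 6.22 and 5.95 in the control arrays, so control replicate 1 reached into the DMTU range. Its rise was 2.51 (limma adjusted p = 0.0426), and 3.52 without control replicate 1. AT5G10040 rose by 0.97 and AT4G24110 by 0.82. The highest adjusted p when single arrays were left out was 0.133 for AT4G27450, 0.0614 for AT5G10040 and 0.15 for AT4G24110. The count of members called higher was 4 without control replicate 2, control replicate 3 or DMTU replicate 2, 5 without DMTU replicate 1, 6 without control replicate 1 and 9 without DMTU replicate 3.

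Both measured genes of the fermentation list, which was added after values had been seen, were called higher, beside 9.39% of all probe sets. PDC2, a pyruvate decarboxylase of the ethanol pathway, had 9.92, 10.08 and 9.37 in the DMTU arrays and 8.62, 8.68 and 8.69 in the control arrays (1.13 ± 0.23, limma adjusted p = 0.00785). AT4G17260 had 9.33, 9.78 and 9.47 in the DMTU arrays and 7.19, 7.77 and 7.65 in the control arrays (1.99 ± 0.18, limma adjusted p = 9.68e-05). The DMTU arrays were the higher in both genes without overlap, and the control arrays of PDC2 were within 0.1 of each other.

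Of 7 measured genes of the iron deficiency response, 3 were called higher (beside 9.39% of all probe sets), among them the regulators PYE and BHLH101. In this response, PYE and the Ib group of bHLH factors, to which BHLH101 belongs, are transcribed when iron is short and adjust uptake and transport. PYE had 7.42, 7.59 and 7.76 in the DMTU arrays and 4.81, 6.05 and 5.70 in the control arrays (2.07 ± 0.26, limma adjusted p = 0.000503). BHLH101 had 5.34, 5.40 and 4.90 in the DMTU arrays and 3.65, 3.997 and 3.68 in the control arrays (1.44 ± 0.18, limma adjusted p = 0.000638). The locus AT1G74770, from the same list, had 5.62, 5.55 and 5.77 in the DMTU arrays and 3.49, 3.91 and 4.28 in the control arrays (1.75 ± 0.19, limma adjusted p = 0.000217). By these probe sets every DMTU array was above every control array. A second probe set of AT1G74770 changed by 0.15 and was not called. These 3 were the calls among 7 measured of 25 listed, with a median of 1.44.

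AT1G47400, also of this list, had 9.07, 8.56 and 9.02 in the DMTU arrays, against 3.13, 7.85 and 7.17 in the control arrays. Its difference of 2.83 was the largest of the 7 and did not pass (adjusted p = 0.0807), the value of 3.13 in control replicate 1 being far below the other control arrays. AT3G13610 differed by 1.34 (adjusted p = 0.278), AT1G18910 by -0.33 and BGLU42 by 0.06. Of the 7 loci of the iron storage list, none was measured. The number called higher was 3 or 4 with any single array left out.

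In the list of cell division, 8 of 11 measured genes were called higher, beside 9.39% of all probe sets. The list was added after values had been seen, so its count is not read as a test. Of 56 listed, 11 were measured, and 0 were called lower, with a median of 1.01 and all 11 above 0. BUB3.1, a protein of the spindle checkpoint, had 8.90, 9.03 and 9.29 in the DMTU arrays and 7.73, 8.05 and 8.14 in the control arrays (1.10 ± 0.13, limma adjusted p = 0.000439). Haspin, a kinase of histone H3, had 6.44, 6.86 and 6.23 in the DMTU arrays and 5.13, 5.53 and 5.55 in the control arrays (1.10 ± 0.16, limma adjusted p = 0.00119). AUR3, an Aurora kinase, had 7.02, 7.12 and 6.87 in the DMTU arrays and 5.76, 6.15 and 6.30 in the control arrays (0.93 ± 0.16, limma adjusted p = 0.00243). The groups did not overlap in these 3 genes, and control replicate 1 was the lowest of the control arrays in each.

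The same order of the control arrays recurred in other members. HTR12, the centromeric histone H3, had 7.24, 7.49 and 7.54 in the DMTU arrays and 5.27, 6.42 and 6.73 in the control arrays (1.28 ± 0.29, limma adjusted p = 0.0126), and 0.85 without control replicate 1. AUR1 had 9.05, 9.19 and 9.49 in the DMTU arrays and 7.39, 8.49 and 8.54 in the control arrays, a rise of 1.10, and 0.72 (limma adjusted p = 0.0962) without control replicate 1; its call was also lost without any single DMTU replicate. BUBR1 (1.01), 3xHMG-box1 (1.09) and PRL (0.65) were the other calls, of which 3xHMG-box1 (adjusted p up to 0.116) and PRL (adjusted p up to 0.0834) did not pass with control replicate 1, DMTU replicate 1 or DMTU replicate 3 left out, and AUR2 (0.95, adjusted p = 0.0548), 3xHMG-box2 (0.79) and ICU2 (0.36) did not pass. The number called higher was 5 without control replicate 1, DMTU replicate 1 or DMTU replicate 3, and the list's median was 0.78 without control replicate 1. Of the 5 core histones with a symbol, HTR12 and HTB4 (0.58, limma adjusted p = 0.00228) were called higher, beside 9.39% of all probe sets.

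**Figure D2:**
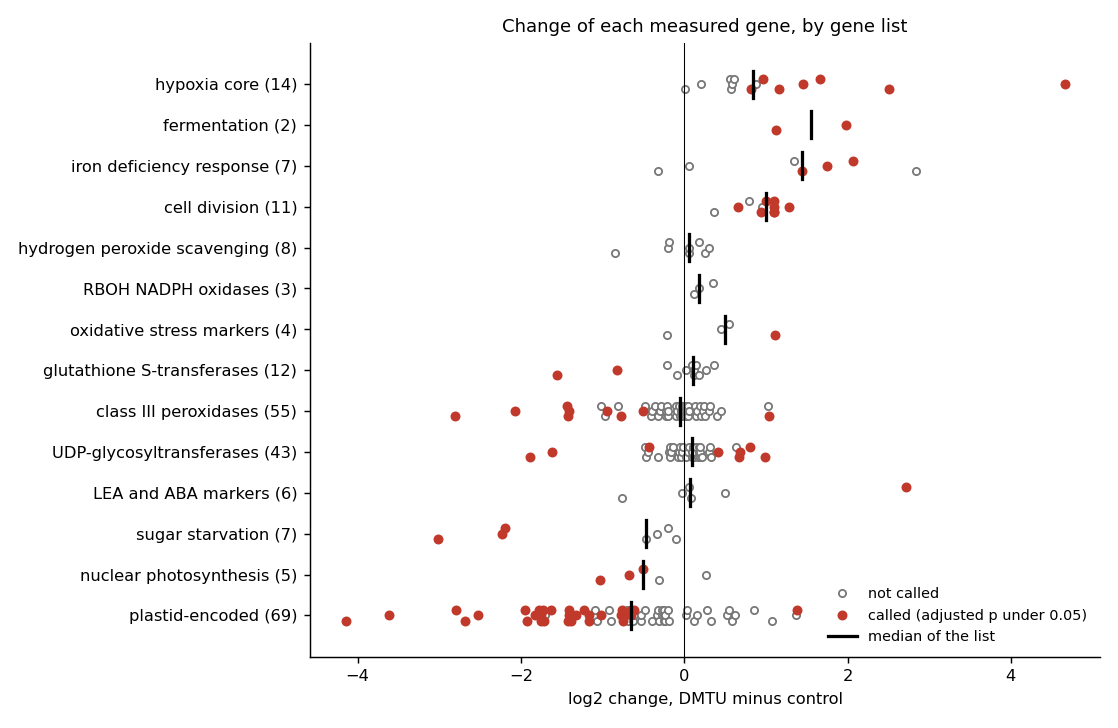
Change of each measured gene (log2, DMTU minus control, horizontal axis) for 14 gene lists, with the number of measured genes in brackets; filled points are calls at an adjusted p under 0.05, open points are not called, and the black bar is the median of the list. The hypoxia core, iron deficiency and cell division lists have medians of 0.85, 1.44 and 1.01, the hydrogen peroxide scavenging list lies near 0, and the plastid-encoded genes have a median of -0.66. The lists of fermentation, cell division, class III peroxidases, sugar starvation and plastid-encoded genes were added after values had been seen.

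The enzymes that remove hydrogen peroxide, the species DMTU is used against, showed no call. Of 37 genes listed, 8 were measured, and 0 were called in either direction by limma (beside 17.6% of all probe sets), with a median of 0.06. Their changes ran from -0.85 in SAPX, the stromal ascorbate peroxidase (adjusted p = 0.098), to 0.31 in AT3G11630 (adjusted p = 0.422). SAPX had 7.95, 7.93 and 7.88 in the DMTU arrays and 9.38, 8.13 and 8.81 in the control arrays, so no DMTU array reached a control array, and the control arrays spread over more than 1 unit. SAPX was called lower without control replicate 2, at -1.18. TAPX, the thylakoid ascorbate peroxidase, changed by -0.20, the glutathione reductases GR and GR1 by 0.06 and 0.05, and the mitochondrial peroxiredoxin PRXIIF by 0.26. The 3 RBOH genes measured, AT4G11230, AT1G19230 and AT4G25090, changed by 0.12, 0.18 and 0.35, with values between 3.44 and 4.45 in all 6 arrays and 0 calls, and AT4G25090 was called higher without control replicate 2, at 0.45. None of the 3 catalases was measured by a probe set with 1 gene.

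Of 4 measured markers of oxidative stress, NDB2 was called, and the shares over all probe sets were 9.39% higher and 8.26% lower. This external NAD(P)H dehydrogenase of mitochondria had 9.43, 9.34 and 9.50 in the DMTU arrays and 7.76, 8.57 and 8.61 in the control arrays (1.11 ± 0.22, limma adjusted p = 0.00648). Of 6 heat shock proteins, AT5G48570 was called at 1.29, a call that was lost without control replicate 1 or 3 or DMTU replicate 1 or 2 (adjusted p up to 0.105). Of 4 genes of sulfur assimilation and sulfur deficiency, AT1G04770 was called higher at 1.04 and SIR, the sulfite reductase, lower at -0.72, while APS3 (0.22) and BGLU28 (-0.16) did not pass. Both calls rested on the full set of arrays: AT1G04770 kept its call only without DMTU replicate 3 (adjusted p otherwise up to 0.127), and SIR only without control replicate 2 (adjusted p otherwise up to 0.0792).

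Plastid-encoded genes were among the falls. Of 69 measured, 30 were called lower (beside 8.26% of all probe sets) and 1 higher (beside 9.39%), with a median of -0.66. In all 30 the DMTU arrays lay below the control arrays without overlap, which a call favours. Control replicate 1 was the highest control array in 58 of the 69 genes. Without it 26 genes were called lower and 2 higher, and the median was -0.47, and with any other single array left out 23 to 28 were called lower. The same 30 genes were all below 0 in ABA+DMTU against ABA, where 17 of them were called lower, beside 6.86% of all probe sets. ABA replicate 1 stood apart in that pair as control replicate 1 did in the first, and its part in these values was not tested. RNA was labelled with a 3′ kit and plastid transcripts mostly lack a stable poly(A) tail, so these values need not follow the amount of plastid RNA. The part of labelling and of RNA quality in them was not tested. The lists of plastid genes were added after values had been seen.

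Photosystem II had the most members among the falls. Of its 15 plastid genes, 12 were called lower and 0 higher, beside 8.26% and 9.39% of all probe sets. The median was -1.17, and 10 to 12 were called lower with any single array left out. psbH, a small subunit, had 7.26, 6.74 and 7.33 in the DMTU arrays and 10.05, 9.76 and 9.89 in the control arrays (-2.79 ± 0.26, limma adjusted p = 0.00011). psbB, the core antenna CP47, had 5.83, 5.79 and 5.70 in the DMTU arrays and 7.84, 7.94 and 7.40 in the control arrays (-1.95 ± 0.39, limma adjusted p = 0.00601). psbD, the reaction centre protein D2, had 7.13, 7.14 and 7.28 in the DMTU arrays and 8.70, 9.54 and 9.07 in the control arrays (-1.92 ± 0.37, limma adjusted p = 0.00519). In all 3 genes the DMTU arrays were within 0.6 of each other and more than 1 unit below the nearest control array.

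The partner of D2 differed the other way. psbA, which encodes D1, had 8.00, 7.76 and 8.31 in the DMTU arrays and 6.98, 7.05 and 5.92 in the control arrays, a difference of 1.37 that did not pass (adjusted p = 0.128). In ABA+DMTU against ABA psbA was called higher, at 2.79 (adjusted p = 0.0081). rbcL, the large subunit of Rubisco, was alike in this: 8.35, 8.19 and 8.54 in the DMTU arrays, 7.94, 7.46 and 7.13 in the control arrays, a difference of 0.85 (adjusted p = 0.103), and 1.39 with ABA present (adjusted p = 0.0171). Without overlap in either gene, the DMTU arrays were the higher.

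In photosystem I, 2 of 5 plastid genes were called lower, beside 8.26% of all probe sets. psaA, a reaction centre protein, had 5.47, 5.53 and 5.88 in the DMTU arrays and 10.36, 9.47 and 9.48 in the control arrays (-4.15 ± 0.35, 17.7-fold lower, limma adjusted p = 5.48e-05). psaB, its partner in the reaction centre, had 10.51, 10.42 and 10.85 in the DMTU arrays and 12.24, 11.10 and 11.15 in the control arrays, a difference of -0.90 that did not pass (adjusted p = 0.0605). The assembly factors of this photosystem went apart: ycf4 fell by 2.53 ± 0.40 (limma adjusted p = 0.00178), and ycf3 rose by 1.38 ± 0.41 (limma adjusted p = 0.0408). ycf3 had 9.17, 9.05 and 9.26 in the DMTU arrays and 8.56, 7.66 and 7.11 in the control arrays. Its call was lost without control replicate 2 or 3 or any DMTU replicate, with adjusted p up to 0.13.

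Of 6 genes of the cytochrome b6f complex, 4 were called lower, with a median of -1.72. petB, cytochrome b6, had 10.77, 10.64 and 10.66 in the DMTU arrays and 12.67, 12.26 and 12.33 in the control arrays (-1.73 ± 0.14, limma adjusted p = 4.5e-05). petL, a small subunit, had 5.66, 4.85 and 4.51 in the DMTU arrays and 10.41, 7.83 and 7.64 in the control arrays (-3.62 ± 0.84), and it did not pass when DMTU replicate 3 was left out (adjusted p = 0.0512). petN and petD changed by 0.16 and 0.27 and did not pass. Complexes with a smaller share of calls were the ATP synthase, with 1 of 6 lower (atpB, -0.72), the NDH complex, with 2 of 10 (ndhH, -1.33, and ndhC, -1.17), the RNA polymerase, with 2 of 4, and the ribosomal proteins, with 5 of 15. Over all probe sets 8.26% were called lower, and the counts of the ATP synthase and the NDH complex are too small to be told apart from that share. The ribosomal proteins called were rps18 (-1.82), rpl36 (-1.63), rpl33 (-1.42), rpl16 (-1.22) and rps19 (-0.65). Without DMTU replicate 2 the calls of atpB, rpl16, rps19 and psbF were lost, and without DMTU replicate 1 that of ndhH (adjusted p up to 0.0976 in these 5 genes when single arrays were left out). The number of ribosomal proteins called lower was 3 without control replicate 1, DMTU replicate 2 or DMTU replicate 3. Of the RNA polymerase, rpoB (-0.76) and rpoA (-0.61) were called, and without control replicate 1 or 2 or DMTU replicate 2 or 3 neither was (adjusted p up to 0.122 and 0.16).

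Plastid genes are transcribed in clusters, and the changes were read in the order in which the gene table lists them. From ycf4 to rps18, 12 genes in a row were called lower: ycf4 (-2.53), cemA (-2.68), petA (-1.76), psbJ (-0.75), psbL (-1.17), psbF (-0.78), psbE (-0.66), petL (-3.62), petG (-1.71), psaJ (-1.75), rpl33 (-1.42) and rps18 (-1.82). The next gene, rpl20, differed by 1.07 (adjusted p = 0.249). Within the psbB cluster, psbB (-1.95), psbT (-1.78), psbH (-2.79) and petB (-1.73) were called lower, while psbN between them differed by 0.58 (adjusted p = 0.11) and petD after them by 0.27 (adjusted p = 0.608). psbN is known to be transcribed from the opposite strand of that cluster. Beside psaA the changes ran -0.90, -4.15 and 1.38 over psaB, psaA and ycf3.

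**Figure D3:**
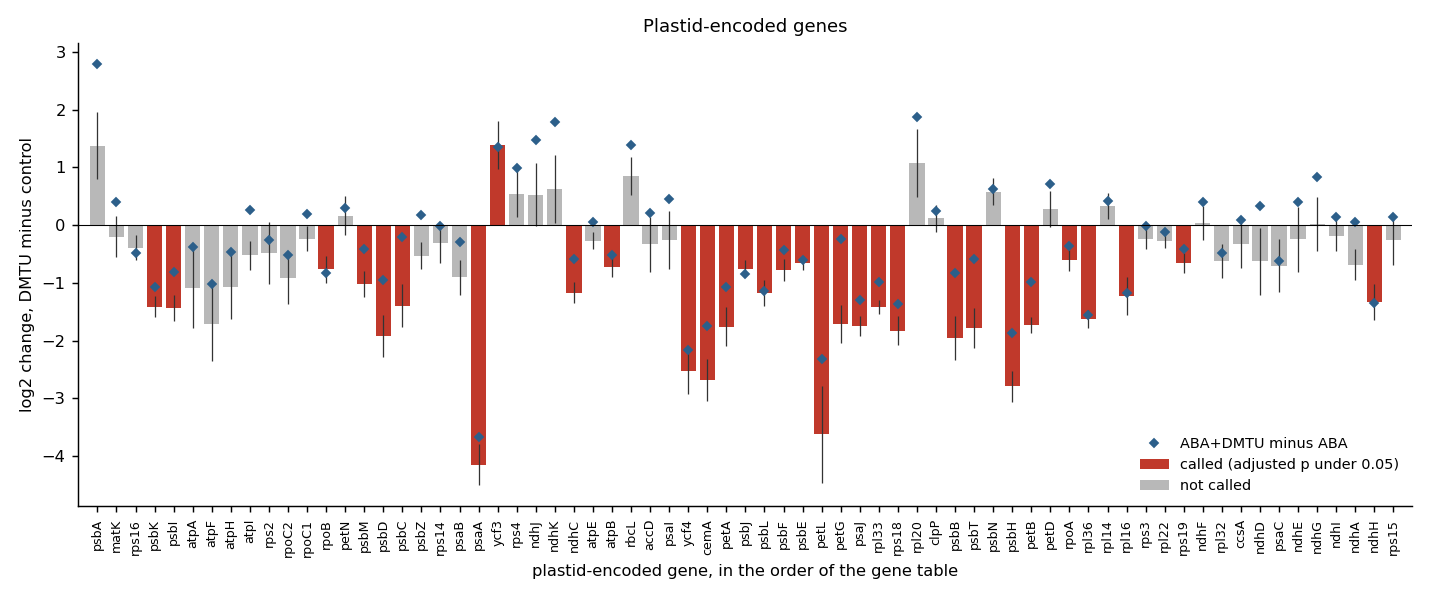
Change of each of the 69 plastid-encoded genes (bars, log2, DMTU minus control, with the SE), in the order of the gene table along the horizontal axis; filled red bars are called and grey bars are not, and diamonds give ABA+DMTU minus ABA. The 12 neighbours from ycf4 to rps18 are all called lower, and psaA, at -4.15, stands beside ycf3, at 1.38.

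Nuclear genes of photosynthesis with a symbol were few. PSAN, a lumenal subunit of photosystem I, had 7.18, 7.37 and 6.28 in the DMTU arrays and 9.97, 9.16 and 9.53 in the control arrays (-2.61 ± 0.30, limma adjusted p = 0.000336), without overlap. Of the 5 genes in the list of antenna and photosystem II proteins, 3 were called lower, beside 8.26% of all probe sets. These were LHCB4.2 (-1.04), LHCB4.1 (-0.68) and PSBW (-0.50), while LHCB4.3 (-0.31) and PSBY (0.27) did not pass. Without DMTU replicate 3 none of the 3 was called (adjusted p up to 0.0566, 0.0745 and 0.148 when single arrays were left out).

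PHYLLO is the nuclear gene for an enzyme of phylloquinone synthesis, the quinone of photosystem I. It had 4.14, 4.28 and 4.11 in the DMTU arrays and 6.87, 6.91 and 6.84 in the control arrays. The arrays of each group were within 0.2 of each other, the fall was 2.70 ± 0.16 on the log2 scale (6.48-fold, limma adjusted p = 4.38e-06), and the change of ABA+DMTU against ABA was -2.30. AT3G27325, known by locus, had 4.47, 4.17 and 4.23 in the DMTU arrays and 7.03, 7.14 and 6.84 in the control arrays, with a like change of -2.72 ± 0.11 (limma adjusted p = 4.58e-07). CP1, a cysteine protease of the papain type, had 3.70, 4.07 and 4.15 in the DMTU arrays and 7.42, 7.65 and 7.83 in the control arrays (-3.66 ± 0.14, 12.6-fold lower, limma adjusted p = 4.58e-07). The DMTU arrays of CP1 lay near the lower quartile of all values.

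PMEPCRF, a pectin methylesterase, had 6.80, 6.60 and 6.38 in the DMTU arrays and 8.87, 8.80 and 8.82 in the control arrays (-2.24 ± 0.17, limma adjusted p = 3.36e-05). ATATH8, of the ABC transporter family, fell by 2.47. The falls of loci without a symbol were AT3G15450 (-3.01), AT5G40630 (-2.96), AT2G43535 (-2.95), AT5G39580 (-2.81), AT5G59490 (-2.81), AT5G61660 (-2.77), AT3G27325, AT1G62480 (-2.63), AT3G48185 (-2.53) and AT3G43430 (-2.41). AT3G15450 did not pass without DMTU replicate 2 or 3 (adjusted p up to 0.0766), nor AT5G59490 without DMTU replicate 3 (adjusted p = 0.0588).

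Of 7 measured genes of 23 listed as induced when sugar runs out, 3 were called lower, beside 8.26% of all probe sets, and 0 higher. The list was added after values had been seen. All 7 changes were below 0, with a median of -0.47. GAT1_2.1, a glutamine amidotransferase, had 5.00, 4.98 and 4.65 in the DMTU arrays and 7.78, 6.57 and 6.98 in the control arrays (-2.24 ± 0.33, limma adjusted p = 0.00134). ATG8H, a ubiquitin-like protein of autophagy, had 6.07, 6.14 and 5.36 in the DMTU arrays and 9.33, 7.33 and 7.49 in the control arrays (-2.19 ± 0.55). AT3G15450 had 8.35, 7.22 and 6.62 in the DMTU arrays and 12.08, 9.30 and 9.85 in the control arrays. Control replicate 1 was the highest in all 3, and the groups did not overlap. Without DMTU replicate 3 only GAT1_2.1 was called, and the ATG8H adjusted p was then 0.073. A second probe set of GAT1_2.1 changed by -0.14.

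Class III peroxidases, secreted enzymes that use or form hydrogen peroxide in the cell wall, had more falls than rises among the calls. Of 73 listed, 55 were measured, 8 were called lower (beside 8.26% of all probe sets) and 1 higher (beside 9.39%), with a median of -0.06. This list was added after values had been seen. AT5G39580 had 6.47, 6.01 and 5.63 in the DMTU arrays and 8.74, 8.84 and 8.97 in the control arrays (-2.81 ± 0.29, limma adjusted p = 0.000153). AT4G36430 had 10.66, 10.17 and 9.54 in the DMTU arrays and 11.69, 12.26 and 12.64 in the control arrays (-2.08 ± 0.38, limma adjusted p = 0.00403). Both were lower in every DMTU array. AT2G37130 (-1.43), AT5G14130 (-1.42), AT1G30870 (-1.44), AT2G22420 (-0.94), AT3G28200 (-0.77) and PRX52 (-0.51) were the other falls, and AT5G40150 rose by 1.04. The number called lower was 5 without control replicate 3 or DMTU replicate 2, since AT1G30870, AT2G22420 and PRX52 did not pass there (adjusted p up to 0.0638, 0.107 and 0.107).

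In families of enzymes that act on foreign and endogenous compounds, few members were called, and the counts are not read as a result about these families. Over all probe sets 9.39% were called higher and 8.26% lower. Of 12 glutathione S-transferases, GSTU18 and GSTU27 were called lower and 0 higher, with a median of 0.11. GSTU18 had 5.67, 6.17 and 5.69 in the DMTU arrays and 7.80, 7.13 and 7.29 in the control arrays (-1.56 ± 0.22, limma adjusted p = 0.000901). Of 43 UDP-glycosyltransferases, 5 were called higher and 3 lower, led by UGT87A2 (0.99) and by UGT71B1 (-1.89) and UGT71C1 (-1.62), and the 5 higher became 3 without control replicate 1 or 2 and 2 without control replicate 3, DMTU replicate 1 or DMTU replicate 2. UGT71B1 had 4.98, 5.05 and 5.29 in the DMTU arrays and 6.94, 7.06 and 6.99 in the control arrays, with no overlap. Of 24 cytochromes P450, 0 were called higher and 3 lower, CYP71B28 (-0.75), CYP71B29 (-0.74) and CYP71B6 (-0.57), of which CYP71B29 alone kept its call without DMTU replicate 2 or 3. Of 29 expansins and xyloglucan endotransglucosylases, XTH19 (-1.84) and XTH18 (-1.66) were called lower, and without DMTU replicate 3 neither was (adjusted p up to 0.122 and 0.0508 when single arrays were left out).

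Where a nuclear gene had several probe sets, a fall was often seen by 1 of them and not by another. Of 145 such genes, 38 had a probe set that was at least 2-fold lower, beside 2.63% of all probe sets taken singly. A gene can be counted by any of its probe sets, so its count is not on the scale of that share. In 26 of the 38 another probe set of the gene was not called. Both the 145 and the 38 include AT5G22700, for which 1 probe set was read. Rises of at least 2-fold were seen in 6 genes, split in the same way in 4. In 5 genes the probe sets were called in opposite directions, such as FU at -1.15 and 0.86. Over the 145 genes the median difference between the highest and the lowest change was 0.42. One probe set of AT2G20050 had 4.45, 4.04 and 4.55 in the DMTU arrays and 6.53, 6.82 and 6.85 in the control arrays (-2.39 ± 0.15), and the other had 7.66, 7.73 and 7.68 in the DMTU arrays and 7.58, 7.92 and 7.77 in the control arrays (-0.07 ± 0.11). The first fell without overlap, while in the second the groups overlapped. AT5G35430 gave -2.30 and -0.34, AT4G02480 gave -2.24 and -0.12, AT2G43160 gave -1.96 and 0.05, and DME, a DNA glycosylase that removes methylated cytosine, gave -1.80 and -0.57.

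SIZ1, the main SUMO ligase of Arabidopsis, fell by both of its probe sets and by unlike amounts. One had 4.48, 5.12 and 4.83 in the DMTU arrays and 7.77, 7.36 and 7.36 in the control arrays (-2.69 ± 0.16), and the other had 8.09, 7.72 and 8.19 in the DMTU arrays and 9.32, 9.07 and 9.02 in the control arrays (-1.13 ± 0.16). In the 26 split genes the lower probe set was also called lower in ABA+DMTU against ABA in 23, and the higher one in 0. Over all probe sets 6.86% were called lower there, and of the 598 falls of at least 2-fold 45.3% were. The probe sets were sorted by their change in the first pair, and both pairs share the record blocks and the estimate of spread. The second pair is therefore not an independent repeat. The 3′ minus 5′ difference of the control messages moved with DMTU in that pair too, with ubiquitin at 1.10 ± 0.07 in ABA+DMTU and 0.67 ± 0.04 in ABA (SD, n = 3 each). Where the probe sets lie on their transcripts was not analysed here, and the part of RNA quality in these splits was not tested.

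**Figure D4:**
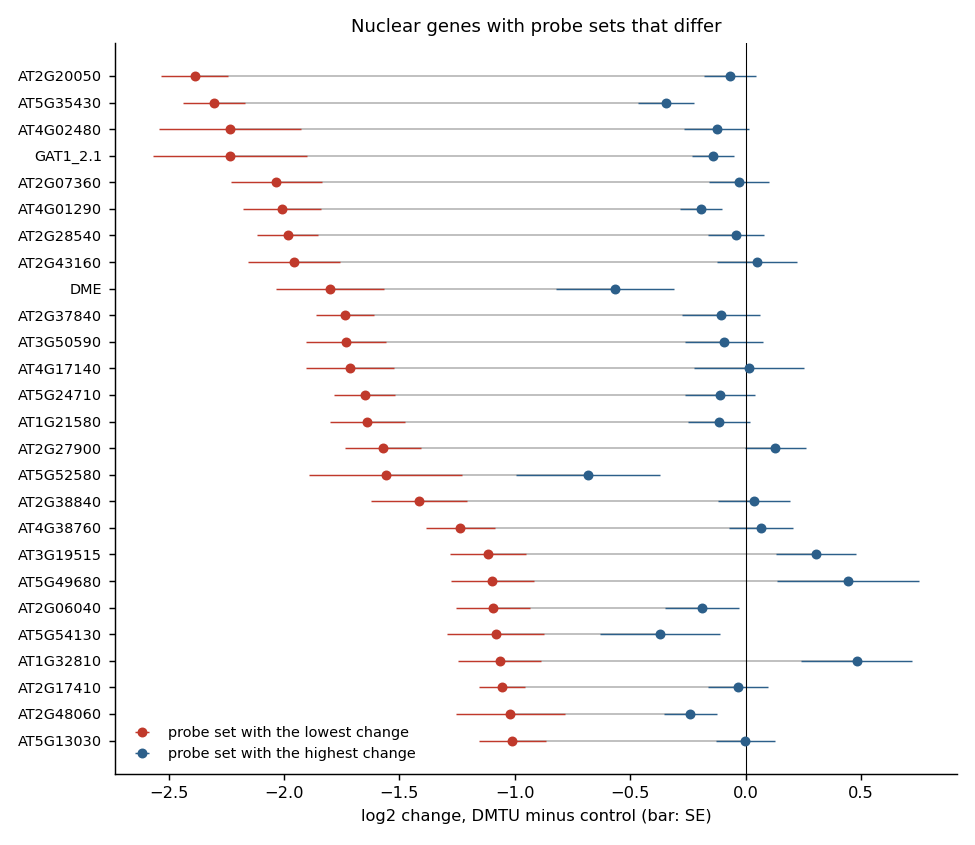
Change (log2, DMTU minus control, with the SE) of the probe sets with the lowest (red) and the highest (blue) change in the 26 nuclear genes that have a probe set at least 2-fold lower and another that is not called. For AT2G20050 they lie at -2.39 and -0.07.

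The comparison of ABA+DMTU with ABA shares no array with that of DMTU with control, but the fit over 12 arrays takes 1 spread from both pairs, so the calls of one are not independent of the other. Of the 521 rises, 212 (40.7%) were also called higher there and 1 lower, beside 7.36% of all probe sets called higher. Of the 598 falls, 271 (45.3%) were also called lower and 3 higher, beside 6.86% of all probe sets called lower. These make up 12.7% of all probe sets called higher with ABA present and 17.4% of those called lower. The change was in the same direction for 474 rises and 534 falls, with a median of 1.26 without ABA and 0.58 with ABA for the rises, and of -1.41 and -0.74 for the falls. With each pair fitted on its own 6 arrays, an alternative added after seeing the data, 191 of 437 rises (43.7%) were also called higher with ABA present, beside 5.73% of all probe sets, and 245 of 529 falls (46.3%) were also called lower, beside 5.82%. The probe sets were chosen by their size in the first pair of groups, which by itself makes values in a second pair smaller. The block difference between the records with and without DMTU is the same in both pairs, and its part in the shared calls was not tested.

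The difference between both DMTU effects was tested as an interaction, the effect with ABA minus the effect without it, and 638 probe sets (2.8%) were called by limma. The interaction subtracts the same DMTU minus control value that chose the rises and falls, so an interaction toward 0 is favoured among them and its count is not read as a result. CP1 changed by -3.66 without ABA and -0.02 with it (interaction 3.64, adjusted p = 2.37e-05), and ABA against control changed it by -3.70. AT1G62480 fell by 2.63 without ABA and rose by 0.98 with it (interaction 3.62). AT4G33905 rose by 1.18 without ABA and fell by 2.11 with it (interaction -3.29, adjusted p = 0.00036). AT4G10270 changed by 4.66 without ABA and 0.92 with it (interaction -3.74, adjusted p = 0.0288).

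The gene groups above were read in the same arrays. With ABA present, 0 of the 14 hypoxia core genes were called higher and 1 lower, with a median of 0.23. Over all probe sets 7.36% were called higher and 6.86% lower with ABA present, and 2.8% had a called interaction. In the hypoxia core the interaction was called in 4 genes, AT4G10270, AT3G27220, AT3G10040 and AT4G17670. The interaction subtracts DMTU minus control values that were known when the lists were chosen, so the counts of interactions are not read as a result. Of the 11 genes of cell division 0 were called with ABA present, with a median of 0.19, and the interaction was called in AUR3. Of the 69 plastid genes 17 were called lower and 2 higher with ABA present, with a median of -0.35 and 0 interactions. QPT (1.62), CDI (2.15), PIFI (2.08), PHYLLO (-2.30) and SIZ1 (-2.62) were called with ABA present at sizes near those without it.

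**Figure D5:**
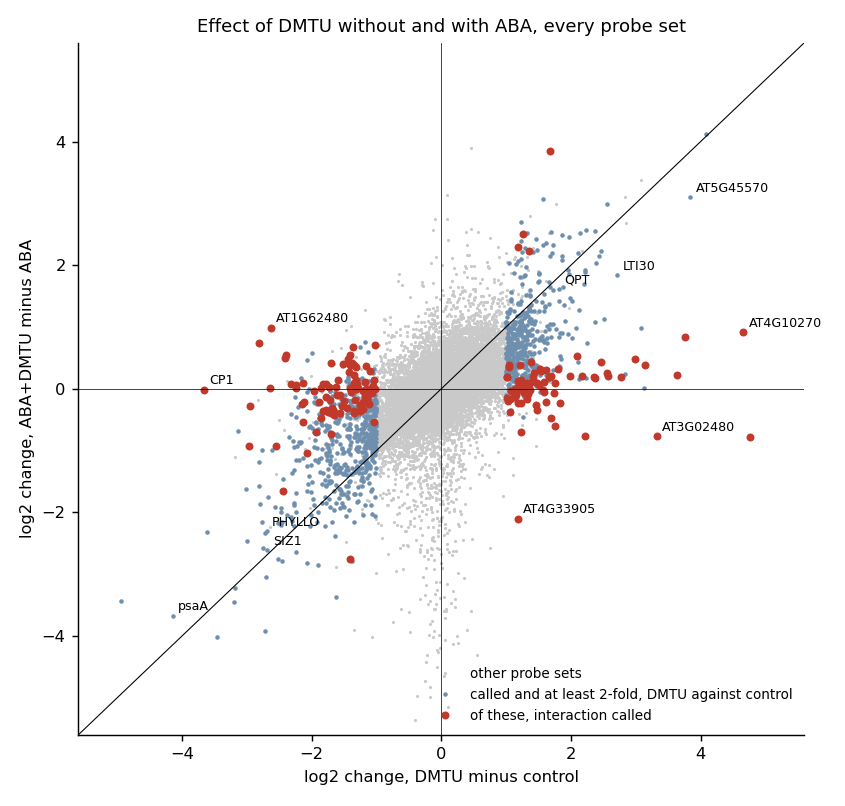
Change of each probe set by DMTU without ABA (horizontal axis, DMTU minus control) and with ABA (vertical axis, ABA+DMTU minus ABA), both log2; blue points are called and at least 2-fold without ABA, red ones also have a called interaction, and the diagonal marks equal effects. CP1 lies at -3.66 and -0.02, psaA at -4.15 and -3.67, AT5G45570 at 3.84 and 3.10, and AT4G10270 at 4.66 and 0.92.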

How the data were processed

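RNA of 12 samples was labelled with a 3′ kit and hybridised to single-colour Affymetrix arrays, per the labels' protocols. The values are the log2 expression values deposited by the authors, made with RMA, per the submitters' processing notes, which also name limma; versions, annotation and how probes were masked are not given in the sources used here. From these values, limma 3.58.1 in R 4.3.3 fitted 4 group means over 12 arrays (8 residual degrees of freedom, no batch term), after being tested on simulated data. Replicate number was no block: the deviations of same-numbered DMTU and control arrays correlated at 0.20, -0.06 and 0.13. The number of arrays limits the precision. Genes come from the platform annotation, and 13436 of the 13513 probe sets with 1 gene matched the gene table.

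The named genes were the 15 largest rises and falls with a symbol and the 10 largest by locus (adjusted p under 0.05, at least 2-fold, no overlap of arrays), up to 4 called members of each list and every member of small lists, certain redox, iron, sulfur and ABA genes whatever their result, and the 5 largest interactions in each direction. Names outside this rule, such as further list members, plastid neighbours and split probe sets, were chosen after their values were seen. Each gene in a list is read by its brightest probe set. Of 58 lists 46 had a measured member, and lists are described by counts and medians. The members and lists were chosen with earlier results of these data known. The lists of cell division, sugar starvation, fermentation, peroxidases by locus, core histones, plastid complexes and the families by symbol were added after values had been seen.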

Additional observations from a re-analysis of the deposited data

Results flagged for a closer look

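For 22 named genes the effect of DMTU differed between cells with and without ABA, by the limma interaction (the effect with ABA minus the effect without it, adjusted p under 0.05, beside 2.8% of all probe sets). Genes were named for a large DMTU minus control value, which the interaction subtracts, for the interaction itself, or as list members. The count of 22 is therefore not read as a result. In genes that DMTU alone raised, the interaction was -3.74 for AT4G10270, -4.09 for AT3G02480, -2.59 for AT2G39590, -2.19 for AT4G33560, -1.46 for NET3C and -3.29 for AT4G33905. In the hypoxia core and fermentation lists it was -1.47 for AT3G27220, -1.18 for AT3G10040, -1.60 for AT4G17670, which DMTU alone did not change by the test, and -1.79 for AT4G17260. In the iron deficiency list it was -1.19 for BHLH101 and -1.66 for AT1G74770. In cell division and histones it was -1.12 for AUR3 and -0.95 for HTB4. In genes that DMTU alone lowered it was 3.64 for CP1, 3.62 for AT1G62480, 2.91 for AT3G43430, 2.68 for AT2G43535, 2.25 for PMEPCRF, 2.03 for AT5G40630, 1.69 for AT2G37130 and 1.28 for GSTU27. Some of these are close to the threshold, with adjusted p = 0.0469 for AT3G02480, 0.0486 for AT3G10040 and 0.0484 for AT4G17670. The 3′ minus 5′ difference of ubiquitin, given above, was larger in the DMTU arrays both without and with ABA. The mean of the hybridisation spike-ins was 10.07 in DMTU and 9.38 in control, and 10.10 in ABA+DMTU and 9.52 in ABA. Both differences follow the 2 blocks of records as well as DMTU, and their cause was not tested.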

How the results depend on the processing

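The 4013 calls of DMTU against control became 8008 with array quality weights and 1776 (903 higher, 873 lower) at an adjusted p under 0.01. They ranged from 2559 (without DMTU replicate 2) to 3541 when single arrays were left out, over which the calls of at least 2-fold ranged from 367 to 637 higher and 489 to 689 lower. Counts under the other settings were 2973 with the 6 arrays alone, 3850 with centred arrays, 4060 with quantile normalization, 4046 of 18167 without dim probe sets, 3767 with trend and robust eBayes, and 4682 without the arrays numbered 1 of control and ABA. A replicate block, which the correlations between same-numbered arrays do not call for, gave 4231. Higher and lower calls were 1866 and 1984 with centred arrays, beside 2135 and 1878. With weights, 7542 probe sets were called for ABA+DMTU against ABA in place of 3234, and 3097 interactions in place of 638. Control replicate 1 had a weight of 0.17 and ABA replicate 1 of 0.26. No named gene changed direction with a call: of the recomputed values 6941 stayed on their side of the threshold, 226 lost and 169 gained the call. List medians stayed within the spread in 476 cases and moved in 27. The causes were not tested.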

Other observations

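Of 42 MADS-box factors, most of which lay near the lower quartile of all values, 5 were called higher and 1 lower, with a median of 0.09, beside 9.39% of all probe sets higher and 8.26% lower. The 5 became 3 without control replicate 2 or DMTU replicate 2, and 2 without DMTU replicate 1 or 3. AGL42, with 8.12, 7.93 and 7.97 in the DMTU arrays and 7.58, 6.90 and 7.10 in the control arrays (0.82, limma adjusted p = 0.00511), was higher by 0.88 with ABA present too. AGL62 was the fall, at -0.65. Of 6 WRKY factors, WRKY53, a regulator of leaf senescence, was called at 0.78 and WRKY47 at -0.74. The WRKY53 call was lost without control replicate 2 or 3 or DMTU replicate 1 or 2 (adjusted p up to 0.139).

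Among genes of the mitochondrial genome 0 were called lower, beside 8.26% of all probe sets. Of 16 measured, 13 were above 0, with a median of 0.36, and ccb206 was the single call (0.54, limma adjusted p = 0.0433). Its call was lost without control replicate 2 or 3 or DMTU replicate 1 or 2 (adjusted p up to 0.1405 when single arrays were left out). Without control replicate 1 or DMTU replicate 3, 1 gene of the list was called higher. Of 12 ubiquitin-conjugating enzymes, UBC37 (1.03, limma adjusted p = 0.00501) and UBC16 (0.53, limma adjusted p = 0.00628) were called higher, beside 9.39% of all probe sets.

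Probe sets whose gene had been merged with another locus in the gene table stood apart in the falls, a grouping that was made after the values were seen. Of 89 such probe sets 13 (14.6%) were at least 2-fold lower and 1 higher, beside 272 of 13278 other named nuclear probe sets (2.05%) at least 2-fold lower. All 13 were also called lower in ABA+DMTU against ABA, beside 6.86% of all probe sets and 45.3% of the 598 falls of at least 2-fold. That pair shares the record blocks and the estimate of spread, so it is not an independent repeat.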
